A study of Homo sapiens with 6 samples.

Results

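The 10 genes described here are 8 transcription factors that drive the epithelial-mesenchymal transition (SNAI1, SNAI2, ZEB1, ZEB2, TWIST1, TWIST2, PRRX1 and FOXC2), the intermediate filament gene VIM and the opposing epithelial factor OVOL2. They were taken by name, each at its brightest probe set that carries 1 gene symbol, and all 10 were measured among 18404 genes. Messenger RNA was profiled on 6 one-colour arrays of HaCaT cells, an immortalised line of human keratinocytes that grows as an epithelium. The shTP63 group (3 arrays) had received a lentiviral short hairpin RNA directed at TP63, and the shControl group (3 arrays) a control hairpin by the same route, with RNA taken after 72 hours in both. TP63 encodes p63, the transcription factor that maintains basal keratinocytes. TP63 itself was not analysed here, and the depth of its knockdown is therefore unknown on these arrays. No separate cultures are named in the labels, so the p-values describe the scatter among these 6 arrays, which could be purely technical.

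In an epithelial-mesenchymal transition, epithelial cells loosen their junctions, lose E-cadherin and take on a motile, fibroblast-like form. SNAI, ZEB and TWIST proteins bind E-box sequences and repress epithelial genes, ZEB1 and ZEB2 are held down by microRNAs of the miR-200 family and by OVOL2, and vimentin filaments are a standard mark of the mesenchymal state. In stratified epithelia SNAI2 is also a normal gene of basal keratinocytes and takes part in wound re-epithelialisation.

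The mature 3p strands of the miR-200 family are shown because the ZEB messengers are their best known targets and the host loci were measured on the same arrays. They were copied from the RefSeq table of GRCh38.p14, and capitals mark the seed, bases 2 to 8.
miR-200c-3p (MIR200C, chromosome 12): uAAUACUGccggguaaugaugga
miR-200b-3p (MIR200B, chromosome 1): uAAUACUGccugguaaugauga
miR-429 (MIR429, chromosome 1): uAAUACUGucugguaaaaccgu
miR-141-3p (MIR141, chromosome 12): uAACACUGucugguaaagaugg
miR-200a-3p (MIR200A, chromosome 1): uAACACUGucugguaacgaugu
By seed they form 2 groups, AAUACUG for miR-200c, miR-200b and miR-429 and AACACUG for miR-141 and miR-200a, and each group has a member at both loci.

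The question was how the core transition factors and vimentin behave when p63 is targeted. In limma's moderated test, 0 of the 10 genes rose and 2 fell, SNAI2 and OVOL2, while 8 did not pass an adjusted p of 0.05. Over all genes 16.4% rose and 25.1% fell, so the 2 falls among 10 genes are close to the background share. At an unadjusted p of 0.05 the count of rises was also 0. The median difference, shTP63 minus shControl on the log2 scale, was -0.03 for the 10 genes and -0.01 for all genes. Lower expression per cell and fewer cells that express a gene cannot be told apart in these bulk samples.

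**Figure D1:**
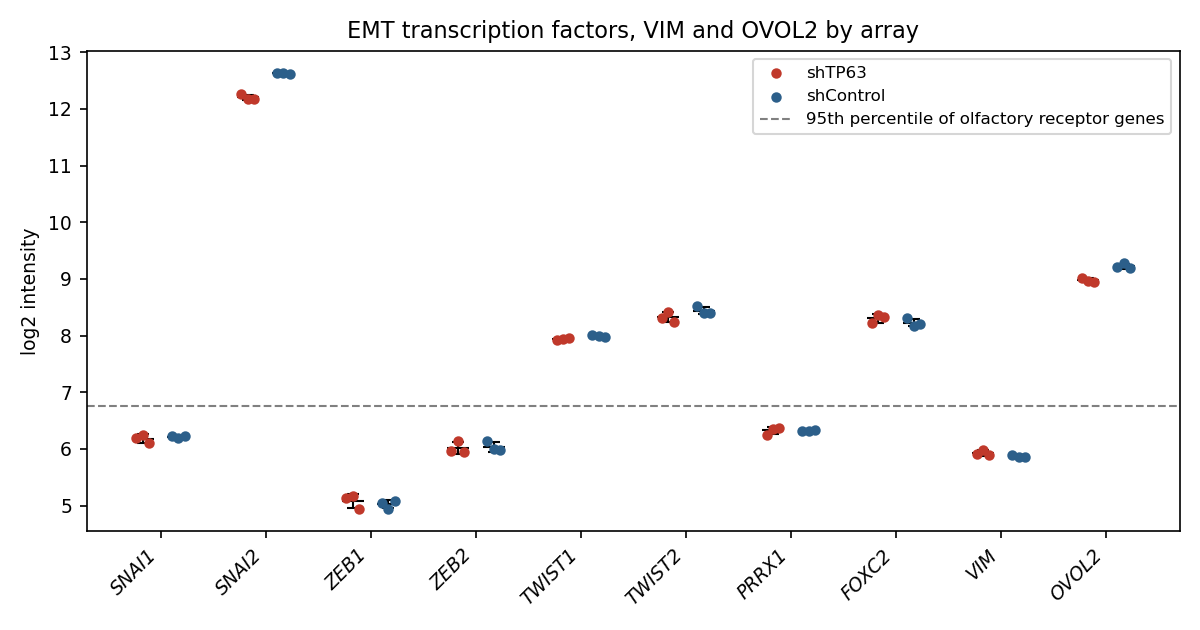
Log2 intensity of the 10 genes (y axis) on each array, shTP63 left of shControl within each gene. Points are arrays, black bars the mean ± SD (n = 3), and the dashed line is the 95th percentile of olfactory receptor genes (6.76). SNAI2 and OVOL2 lie lower on every shTP63 array, and SNAI1, ZEB1, ZEB2, PRRX1 and VIM lie under the dashed line in both groups.

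SNAI2 encodes SLUG, a zinc finger repressor of E-box genes. Its probe set (8150698) read 12.26, 12.18 and 12.17 on the shTP63 arrays and 12.63, 12.63 and 12.61 on the shControl arrays (log2 intensity). Every shTP63 array lay below every shControl array. The means were 12.20 ± 0.048 in shTP63 and 12.62 ± 0.016 in shControl (SD, n = 3), so SNAI2 fell by 0.42 in log2 units, with a standard error (SE) of 0.044, or 1.34-fold, with a limma adjusted p of 8.83e-05. Its level stood above that of 98.7% of all genes. Of the 500 genes nearest to it in level, 38.6% fell, their median difference was -0.06, and 42 had a lower difference than SNAI2.

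OVOL2 encodes a zinc finger repressor that keeps epithelial cells from expressing ZEB1, so its known role is opposite to that of SNAI2. Its probe set (8065185) read 9.02, 8.96 and 8.95 in shTP63 and 9.21, 9.27 and 9.19 in shControl, again without overlap. The means were 8.98 ± 0.037 and 9.22 ± 0.044 (SD, n = 3) in shTP63 and shControl, and OVOL2 fell by 0.25 (SE 0.045), or 1.19-fold, with a limma adjusted p of 0.00196. Among the 500 genes nearest to it in level 44.2% fell, with a median difference of -0.11, and 130 had a lower difference. The fall of OVOL2 was therefore of a size that many genes of like brightness showed, and that of SNAI2 was shared by fewer.

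SNAI1 encodes SNAIL, the close relative of SNAI2 that is best known for repressing the E-cadherin gene. It read 6.19, 6.25 and 6.10 in shTP63 against 6.23, 6.20 and 6.22 in shControl. The groups overlapped, the difference was -0.03 (95% interval -0.15 to 0.08), and the limma adjusted p was 0.643. Both means lay below 6.76, a background level set at the 95th percentile of 340 genes for olfactory receptors, most of which are silent outside the nose. A true change of a gene beneath that level may be understated.

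ZEB1 and ZEB2 encode zinc finger homeobox repressors. ZEB1 read 5.14, 5.17 and 4.93 in shTP63 and 5.06, 4.94 and 5.08 in shControl, a difference of 0.06 (95% interval -0.10 to 0.21, limma adjusted p = 0.566). ZEB2 read 5.96, 6.15 and 5.95 in shTP63 and 6.14, 5.99 and 5.99 in shControl, a difference of -0.02 (95% interval -0.17 to 0.13, limma adjusted p = 0.856). Both pairs of groups overlapped under the background percentile. Of the olfactory receptor genes, 37.1% were dimmer than ZEB1 and 80.3% dimmer than ZEB2. ZEB2 has another probe set (8055639), far dimmer, which read 3.46, 3.58 and 3.50 in shTP63 and 3.26, 3.19 and 3.34 in shControl. There the groups did not overlap, the difference was 0.25 (SE 0.057), and the limma adjusted p over all 32321 probe sets was 0.0145. The 2 ZEB2 probe sets thus disagreed, and the mean of both, 0.12 on the log2 scale, did not pass.

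TWIST1 and TWIST2 encode basic helix-loop-helix factors that pair with E proteins. TWIST1 read 7.93, 7.94 and 7.95 in shTP63 against 8.02, 7.99 and 7.97 in shControl. These groups did not overlap. TWIST1, SNAI2 and OVOL2 were the 3 of 10 genes without overlap, all lower in shTP63, where 51.4% of all genes had no overlap, 30.4% lower and 20.9% higher in shTP63. For TWIST1 the difference of -0.05 (95% interval -0.14 to 0.04) did not pass (limma adjusted p = 0.368). TWIST2 read 8.32, 8.41 and 8.24 in shTP63 and 8.52, 8.40 and 8.41 in shControl, with overlap, a difference of -0.12 (95% interval -0.25 to 0.01) and a limma adjusted p of 0.133. Both genes stood above the background percentile in both groups. By mean level so did 13310 of the 18404 genes, so standing above it does not by itself show that a gene is expressed in these cells.

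PRRX1 and FOXC2 encode a homeobox and a forkhead factor of embryonic mesenchyme. PRRX1 read 6.25, 6.36 and 6.37 in shTP63 and 6.32, 6.33 and 6.34 in shControl, under the background percentile and with a difference of -0.00 (95% interval -0.11 to 0.11, limma adjusted p = 0.993). FOXC2 read 8.22, 8.36 and 8.33 in shTP63 and 8.30, 8.17 and 8.21 in shControl, above the percentile and with a difference of 0.08 (95% interval -0.05 to 0.20, limma adjusted p = 0.320). Both pairs of groups overlapped.

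VIM, the gene of vimentin, read 5.90, 5.99 and 5.90 in shTP63 and 5.90, 5.86 and 5.85 in shControl. The groups overlapped and 77.1% of olfactory receptor genes were dimmer, so the probe set was not above background in either group. The means were 5.93 ± 0.051 in shTP63 and 5.87 ± 0.025 in shControl (SD, n = 3), a difference of 0.06 (95% interval -0.04 to 0.16, limma adjusted p = 0.341). On the deposited scale and at the brightest probe set of each gene, the intervals of the 8 genes that did not pass ran from -0.25 (TWIST2) to 0.21 (ZEB1), or 1.19-fold lower to 1.16-fold higher. The dimmer ZEB2 probe set, at 0.25, lay outside that range.

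**Figure D2:**
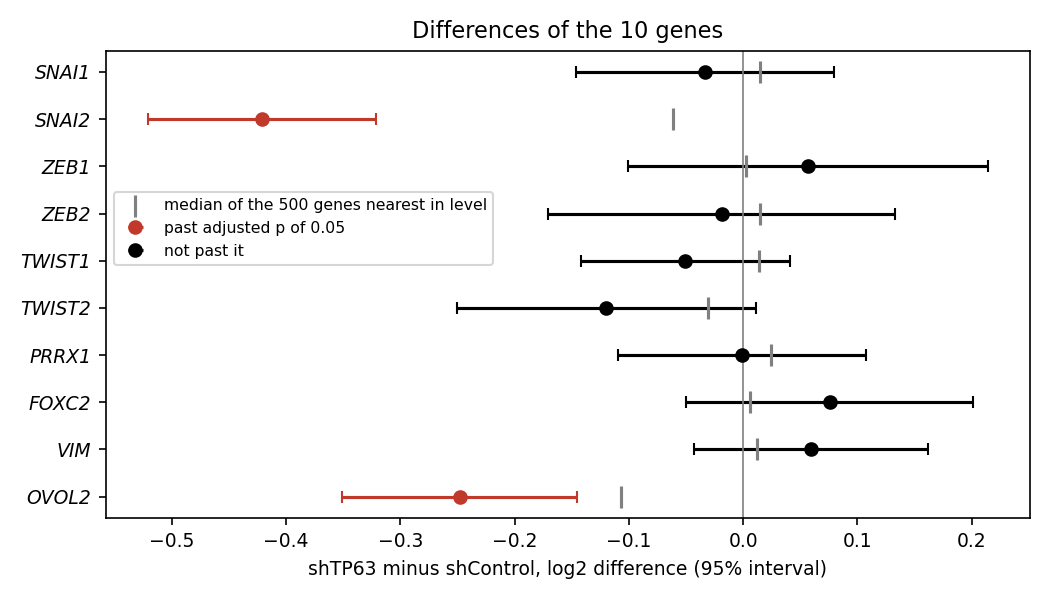
Difference of each of the 10 genes, shTP63 minus shControl in log2 units (x axis), with its 95% interval from limma. Grey ticks mark the median difference of the 500 genes nearest in level. The intervals of SNAI2 (-0.52 to -0.32) and OVOL2 (-0.35 to -0.15) lie below both 0 and their ticks, and the other 8 include 0.

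How the arrays were scaled mattered for 3 further genes. With every array centred on its median, or after another quantile normalization, SNAI1, TWIST1 and TWIST2 also fell and the count became 5. Centring moved the median difference of all genes to -0.12 (-0.01 on the deposited scale) and the share of falls among all calls to 81.7% (60.5% on the deposited scale). Centring moves each array by a constant, so a difference relative to the median of all genes is the same before and after it. These relative differences were -0.41 for SNAI2, -0.24 for OVOL2, -0.11 for TWIST2, -0.04 for TWIST1 and -0.02 for SNAI1. After the other quantile normalization, with an all-gene median of -0.08, they were -0.30, -0.14, -0.10, -0.07 and -0.07 in the same order. SNAI2 ranged from -0.53 to -0.35 and OVOL2 from -0.36 to -0.16 over 17 alternatives and passed in each. No gene of the 10 rose in any of them, but the dimmer ZEB2 probe set, with its rise of 0.25, was not counted on its own.

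**Figure D3:**
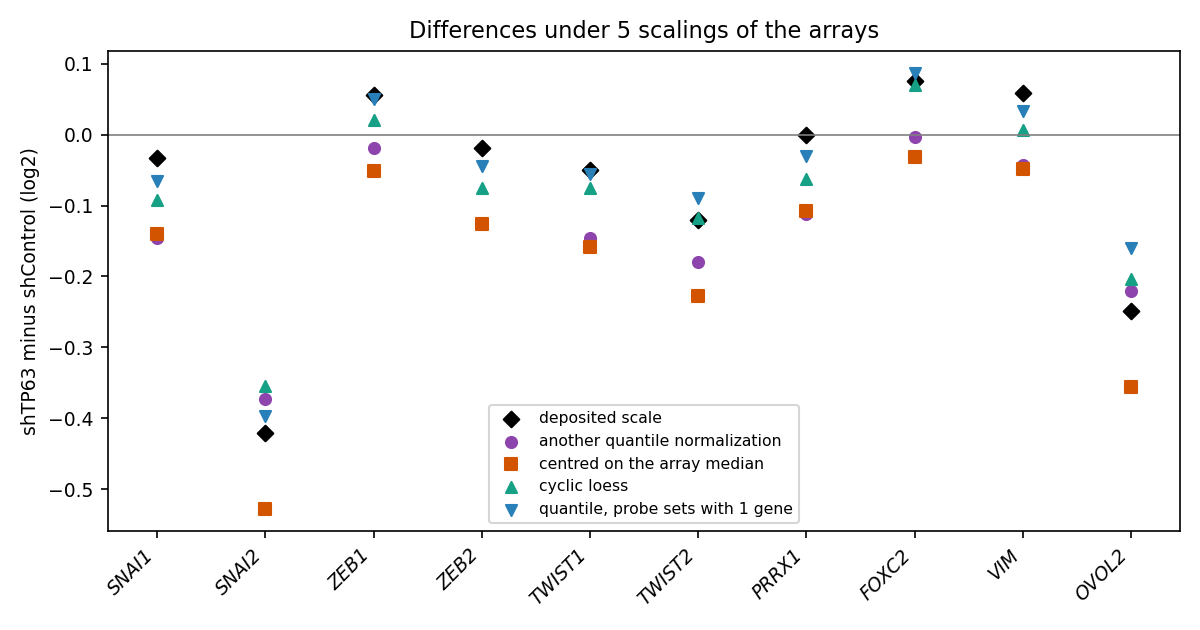
Difference of each gene (y axis, shTP63 minus shControl in log2 units) on the deposited scale and under 4 other scalings of the arrays. SNAI2 and OVOL2 stay below 0 throughout, and the signs of ZEB1, FOXC2 and VIM turn after centring on the array median and after another quantile normalization.

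The 6-array profile of SNAI2 was most like those of TXNL1 (Pearson r = 1.00, a difference of -0.32), SPG21 (-0.37) and MECOM (-0.43), and most opposite to those of MAPK8IP3 (0.22), CKAP4 (0.74) and NUP93 (0.14). That of OVOL2 was most like MRPS10 (-0.45), RAB7A (-0.18) and CHCHD1 (-0.41), and most opposite to SNORA55 (0.32), CCBE1 (0.25) and NID2 (0.43). These are descriptions over 6 arrays in 2 groups: 2462 genes reached r above 0.95 with SNAI2 and 1846 with OVOL2. The calls of MAPK8IP3 (adjusted p = 0.0568) and NUP93 (adjusted p = 0.553) were lost after centring, and NUP93 was also lost without shTP63 replicate 2 or any 1 shControl array (adjusted p from 0.0537 to 0.0624).

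Beyond the core factors, 20 other factors that promote the transition were measured. Of these 1 rose and 9 fell, and their median difference was -0.09. FOXQ1, a forkhead factor, fell to 9.71 ± 0.066 in shTP63, against 10.26 ± 0.070 in shControl (SD, n = 3), a difference of -0.55 (limma adjusted p = 6.36e-05). The homeobox gene MSX2 fell by 0.44 (SE 0.054) and ETS1 by 0.35 (SE 0.049). SOX4, named after its value was seen, was the rise, at 0.28 (SE 0.044).

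Of 9 dimer partners and inhibitors of TWIST factors, 0 rose and 5 fell. Their median level lay in the next to brightest bin, where 43.0% of genes fell. ID proteins sequester E proteins and so keep them from pairing with TWIST. ID2 read 9.79, 9.84 and 9.83 in shTP63 and 10.89, 10.95 and 10.96 in shControl, a fall of 1.11 (SE 0.043, limma adjusted p = 6.24e-07). ID4 fell by 0.91 (SE 0.098) and ID3 by 0.38 (SE 0.048), and ID1 (-0.30) and the E protein gene TCF12 (-0.28), named after their values were seen, also fell. The fall of TCF12 was also counted among the other factors that promote the transition. The 4 ID genes fell in each of 17 alternatives. TCF3 (-0.10) and TCF4 (-0.01) did not pass, but after centring TCF3 also fell (-0.21, limma adjusted p = 0.00421), 1 of 7 falls among the 9 genes there.

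Of 16 factors of the epithelial state besides OVOL2, 2 rose (12.5%) and 6 fell (37.5%). In the bin of their median level, the next to brightest, 18.5% of genes rose and 43.0% fell. GRHL3, a grainyhead factor of epidermal barrier formation, fell to 8.23 ± 0.110 in shTP63, against 9.18 ± 0.065 in shControl (SD, n = 3), a difference of -0.96 (limma adjusted p = 9.06e-06). OVOL1, the relative of OVOL2, read 8.91, 8.92 and 8.98 in shTP63 and 9.36, 9.30 and 9.26 in shControl and fell by 0.37 (SE 0.046), and KLF5 fell by 0.33 (SE 0.042). GRHL1 (0.34) and TFAP2C (0.13) rose, both named after their values were seen. The TFAP2C call was lost in 9 of 17 alternatives, among them those without shTP63 replicate 1, 2 or 3 or shControl replicate 1 or 3 (adjusted p from 0.0502 to 0.122). GRHL2 (0.01) and ELF3 (-0.00) differed by less than their standard errors.

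Of 22 corepressors that SNAIL or ZEB proteins recruit, 2 rose (9.1%) and 7 fell (31.8%). In the bin of their median level, the brightest, 25.3% of genes rose and 44.0% fell. The lysyl oxidase LOXL2, reported to stabilise SNAIL, rose by 2.18 (SE 0.050, limma adjusted p = 3.8e-08), and the Polycomb subunit EED rose by 0.47 (SE 0.047). AJUBA, a LIM protein that bridges SNAIL to its partners, fell by 0.32 (SE 0.040). Centring gave 2 rises and 12 falls in this list, and cyclic loess gave 5 rises and 6 falls.

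Of 20 genes of SNAIL protein turnover, 0 rose and 15 fell, and the median difference was -0.17. BTRC, the F-box protein that marks phosphorylated SNAIL for degradation, read 8.38, 8.42 and 8.38 in shTP63 and 9.15, 9.26 and 9.21 in shControl and fell by 0.81 (SE 0.045, limma adjusted p = 3.72e-06). The phosphatase CTDSP1, which removes phosphates that lead to degradation, fell by 0.56 (SE 0.054), and the deubiquitinase USP27X, which stabilises SNAIL, fell by 0.45 (SE 0.051). The other 5 genes of the list did not pass. The list's median level lay in the next to brightest of 5 equal bins of level, where 43.0% of genes fell, and the count of falls was 11 after cyclic loess, 19 after centring and 9 at an adjusted p of 0.01.

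Of 32 upstream inducers, 9 rose (28.1%) and 10 fell (31.2%). In the bin of their median level, the brightest, 25.3% of genes rose and 44.0% fell. The ligand TGFB2 averaged 12.60 ± 0.010 in shTP63 and 11.71 ± 0.007 in shControl (SD, n = 3), a rise of 0.89 (limma adjusted p = 1.14e-06). Its receptor subunit TGFBR2 rose by 0.85 (SE 0.046) and the hepatocyte growth factor receptor MET by 0.80 (SE 0.043). Among the 10 that fell, picked out once the values were known, were the hypoxia factor EPAS1 (-0.57, SE 0.042) and the TGF-beta signal transducer SMAD2 (-0.47, SE 0.048). The count of falls was 6 after cyclic loess, 6 after quantile normalization over probe sets with 1 gene and 5 at an adjusted p of 0.01.

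**Figure D4:**
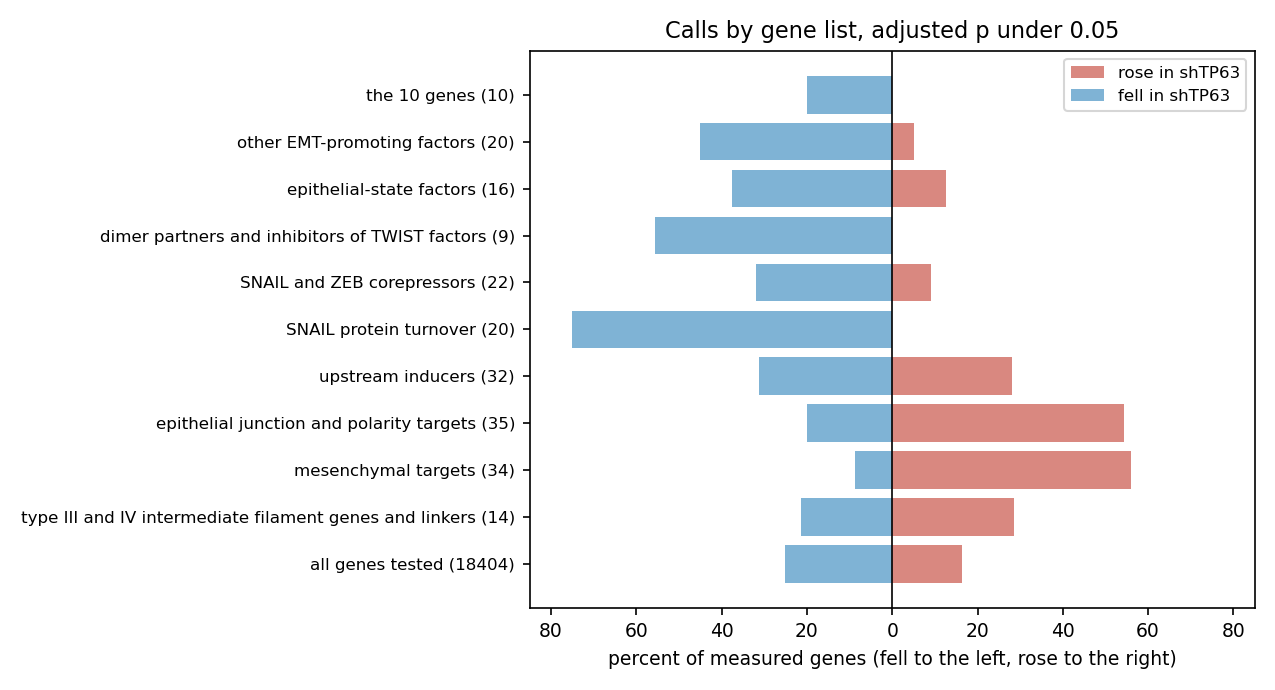
Percent of measured genes (x axis) in each list that rose (right of 0) or fell (left of 0) in shTP63 at an adjusted p of 0.05. List sizes are in brackets, and all genes tested (16.4% rose, 25.1% fell) are at the bottom. The 10 genes have no bar to the right, while junction and polarity targets (54.3%) and mesenchymal targets (55.9%) have the longest ones.

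Genes that these factors are known to act on were read next. Of 34 mesenchymal targets, 19 rose and 3 fell (median difference 0.18). By mean level 22 of the 34 stood above the background percentile. CDH11, LOX, COL5A2, FAP and FBN1, which rose, and DCN, which fell, lay under it in both groups. N-cadherin, CDH2, read 11.69, 11.77 and 11.75 in shTP63 and 10.11, 10.14 and 10.21 in shControl, a rise of 1.59 (limma adjusted p = 1.39e-07). TNC rose by 1.79 (SE 0.054) and fibronectin, FN1, by 1.51 (SE 0.050). S100A4 (-0.54), DCN (-0.26) and MYL9 (-0.16) fell, and were picked out once their values were known. MYL9 was lost in 12 of 17 alternatives and DCN in 7 of 16, among them, for both, those without shTP63 replicate 1 or 2 or shControl replicate 1 (adjusted p from 0.0615 to 0.140), and MYL9 also without shTP63 replicate 3 (0.106) or shControl replicate 2 (0.0618) and DCN without shControl replicate 3 (0.0789).

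Of 35 epithelial junction and polarity genes that SNAI and ZEB factors are known to repress, 19 rose and 7 fell (median difference 0.17). E-cadherin, CDH1, named after its value was seen, read 12.90, 12.89 and 12.85 in shTP63 and 12.56, 12.62 and 12.58 in shControl, a rise of 0.29 (SE 0.042, limma adjusted p = 0.000500). The protease ST14 rose by 0.78 (SE 0.052) and cingulin, CGN, by 0.93 (SE 0.079), whereas AP1M2, a sorting adaptor of epithelial cells, fell by 0.75 (SE 0.050). So epithelial (54.3%) and mesenchymal targets (55.9%) both had more rises than the 16.4% of all genes. In the bins of their median levels, the brightest for epithelial and the middle for mesenchymal targets, 25.3% and 18.0% of genes rose. After centring, 12 mesenchymal targets rose and 8 fell, and 13 epithelial targets rose and 11 fell.

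Among 14 other intermediate filament genes (most, but not all, of types III and IV) and linkers, 4 rose and 3 fell. After centring or another quantile normalization 5 fell. In the bin of their median level, the middle of the 5, 18.0% of genes rose and 25.4% fell. The linkers PLEC and DST rose by 0.39 (SE 0.047) and 0.41 (SE 0.052), and synemin, SYNM, a partner of vimentin, rose by 0.40 (SE 0.055). NEFM rose by 0.27, while NEFL (-0.36), BFSP1 (-0.50) and INA (-0.21) fell, these 4 named after their values were seen. NEFM was lost after centring (adjusted p = 0.0504) and after another quantile normalization (0.0743), and INA, under the background percentile in both groups, without shTP63 replicate 1 or 3 or shControl replicate 2 or 3 (adjusted p from 0.0633 to 0.0802). Desmin, DES, the muscle filament of vimentin's type, differed by 0.03 (limma adjusted p = 0.650).

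Of 10 microRNA genes linked to the transition, 3 rose and 0 fell. In the bin of their median level, the dimmest, 6.4% of genes rose and 4.4% fell. MIR200C read 8.46, 8.60 and 8.80 in shTP63 and 7.84, 7.87 and 7.98 in shControl, without overlap, a rise of 0.72 (SE 0.083, limma adjusted p = 0.000146). MIR141, its neighbour on chromosome 12, read 6.96, 6.83 and 7.17 in shTP63 and 6.81, 6.56 and 6.65 in shControl, a rise of 0.31 (SE 0.092, limma adjusted p = 0.0221), with the shControl mean under the background percentile. That call was lost in 8 of 16 alternatives, among them another quantile normalization, centring and cyclic loess (adjusted p from 0.0624 to 0.120) and the fits without shTP63 replicate 3 (0.0599), shControl replicate 2 (0.0796) or shControl replicate 3 (0.0608).

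The chromosome 1 members of the family did not pass: MIR200A differed by -0.07 (limma adjusted p = 0.623), MIR200B by 0.05 (0.414) and MIR429 by 0.17 (0.148). MIR200A lay under the background percentile in both groups, so a true change of it may be understated. Every shTP63 array lay above every shControl array for MIR429. MIR21, a microRNA gene induced in many carcinomas, rose by 1.45 (SE 0.053, limma adjusted p = 5.17e-07). MIR34A (0.08), MIR34B (-0.07), MIR203A (-0.03) and MIR10B (0.02) did not pass and lay under the background percentile, and MIR34A passed as a rise without shTP63 replicate 2 (0.22, adjusted p = 0.0143). Such probe sets may read precursor or host transcripts, so mature microRNA was not measured.

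**Figure D5:**
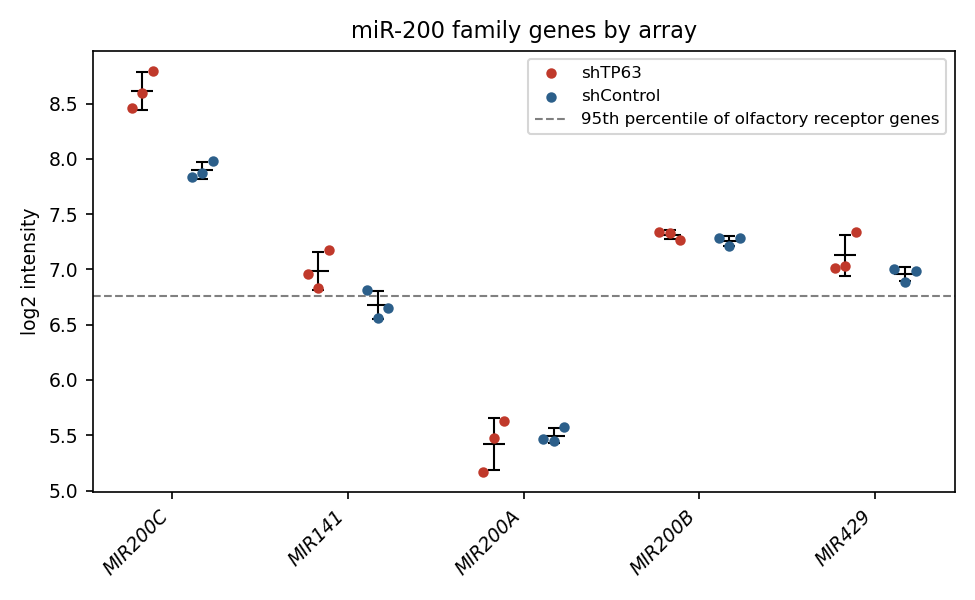
Log2 intensity (y axis) of the probe sets of the 5 miR-200 family genes by array, shTP63 left of shControl. Points are arrays, bars the mean ± SD (n = 3), and the dashed line the background percentile (6.76). All MIR200C values of shTP63 (8.46 to 8.80) lie above those of shControl (7.84 to 7.98), and MIR200A and MIR200B overlap.

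Promoter windows were searched for the E-box that SNAI and ZEB proteins bind, CAGGTG or CACCTG, which are the same site read from either strand. In 300-base windows, 250 bases before to 50 after the gene start, 20.6% of 27305 RefSeq promoters held it. Windows were at hand for 5 of the 10 genes (ZEB1, ZEB2, TWIST2, PRRX1 and VIM), and 1 of them, ZEB1, held 1 match. They were at hand for 20 of the 35 epithelial junction targets, of which 10 held it, and for 20 of the 34 mesenchymal targets, of which 1 did. CDH1 was among the genes without a window. The epithelial genes were listed as known targets of these repressors, so a high share may be built into the list. Of the 10 epithelial targets with a match 5 rose and 2 fell, and of the 10 without 6 rose and 1 fell. The difference between these counts was not tested. The ZEB1 window and that of CRB3, a polarity gene repressed by SNAI and ZEB factors that had 5 matches, are shown on the gene's strand with E-boxes in capitals (GRCh38.p14).
ZEB1, chr10:31318167-31318466, plus strand: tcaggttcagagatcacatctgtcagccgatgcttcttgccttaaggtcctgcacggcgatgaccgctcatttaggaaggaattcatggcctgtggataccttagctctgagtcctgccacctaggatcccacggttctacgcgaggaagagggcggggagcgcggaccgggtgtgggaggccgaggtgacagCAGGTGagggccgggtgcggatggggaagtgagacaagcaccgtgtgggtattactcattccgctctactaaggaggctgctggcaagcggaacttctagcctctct
CRB3, chr19:6464021-6464320, plus strand: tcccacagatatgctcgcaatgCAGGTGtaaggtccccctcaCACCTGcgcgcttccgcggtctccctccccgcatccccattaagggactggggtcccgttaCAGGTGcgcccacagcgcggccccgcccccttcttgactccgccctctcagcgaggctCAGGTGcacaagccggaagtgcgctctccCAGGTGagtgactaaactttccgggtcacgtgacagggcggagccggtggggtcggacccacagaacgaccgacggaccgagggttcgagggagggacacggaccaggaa
CRB3 read 8.59, 8.72 and 8.65 in shTP63 and 8.62, 8.57 and 8.59 in shControl, with overlap and a difference of 0.06 (limma adjusted p = 0.340).

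Since fibroblasts and melanocytes express several of the 10 genes, markers of cell types were read on the same arrays. All 16 measured keratinocyte markers stood above the background percentile. Their summed intensity was 81416 to 82423 in shTP63 and 85323 to 87935 in shControl. Of the 16 genes 5 rose (31.2%) and 6 fell (37.5%). In the bin of their median level, the brightest, 25.3% of genes rose and 44.0% fell. SFN (-0.60) and KRT5 (-0.50) were among the falls, and CDH3 (0.36), also one of the epithelial targets, was among the rises. Fibroblast markers, of which 2 are TWIST2 and PRRX1, stood above the percentile in 7 of 17 genes and summed to 2337 to 2486 in shTP63 and 2183 to 2296 in shControl. Of the 17 genes 5 rose (29.4%), 1 fell (5.9%, DCN, -0.26, with the lost calls given above) and 11 did not pass. In the bin of their median level, the next to dimmest, 13.7% of genes rose and 8.7% fell. The 5 that rose and the 1 that fell are also mesenchymal targets, so the same calls were counted in both lists. COL5A1 (0.41), FAP (0.37) and FBN1 (0.35) were among the rises, the last 2 under the percentile, and 3 genes rose after centring or without shControl replicate 3. Melanocyte markers stood above it in 3 of 8 genes and summed to 945 to 989 in shTP63 and 914 to 929 in shControl. MLANA, TYR and TYRP1 lay under it in both groups, and PMEL (0.25) rose, a call lost after centring (adjusted p = 0.0528) and another quantile normalization (0.0739). Immune and endothelial markers stood above it in 3 of 9 genes and summed to 2107 to 2243 in shTP63 and 1629 to 1750 in shControl. CD68 (0.75) and CD14 (0.70) rose and VWF (-0.18) fell, the last lost without shControl replicate 3 (adjusted p = 0.0558). The median levels of the melanocyte list and of the immune and endothelial list lay in the dimmest bin, where 6.4% of genes rose and 4.4% fell. The part of such cells in the results was not tested.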

How the data were processed

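The deposited values were array intensities on a linear scale, for which the submitters' processing notes name RMA (background correction, quantile normalization and probe set summary) and R 2.15.1. Per the labels' protocols, cDNA synthesis was primed with oligo-dT and biotinylated cRNA was hybridised. The platform annotation gave 19158 of 32321 probe sets 1 gene, 1388 several and left 11775 unlisted, and 19128 matched RefSeq by identifier. The array's build is not given in the sources used here.

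Log2 was taken, and for each of 18404 genes the probe set with the highest mean was used. Median log2 per array was 7.54 to 7.57 in shTP63 and 7.44 to 7.47 in shControl, so the deposited scale itself differed between the groups. Moderated two-sided tests came from eBayes after lmFit (limma 3.58.1, R 4.3.3), without covariates, adjusted by Benjamini-Hochberg over all genes at a threshold of 0.05. Each difference is the shTP63 mean less the shControl mean. Background was the 95th percentile of 340 olfactory receptor genes. The number of arrays, 3 per group, limits the precision (median standard error 0.053). The test was tried on simulated data.

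The 10 genes and the lists were chosen with earlier results of these data known. The text names the 10 genes, up to 3 genes per list with the smallest adjusted p among those that passed, cell type markers, every microRNA gene listed, and the 3 genes most and least correlated with each of the 10 that passed. Any other gene named was chosen after its value was seen. Alternatives were the replicate block, 4 scalings, a filter on the dimmest 40%, the mean of probe sets, all probe sets, a trended robust prior, array weights, a threshold of 0.01 and each array left out.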

Additional observations from a re-analysis of the deposited data

How the results depend on the processing

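The counts among the 10 genes, 0 rises and 2 falls, were the same in 15 of 17 alternatives, among them each array left out in turn. In none of these counts did the dimmer ZEB2 probe set stand on its own. After another quantile normalization and after centring on the array median, 5 fell: SNAI1 (-0.15 and -0.14), TWIST1 (-0.15 and -0.16) and TWIST2 (-0.18 and -0.23) joined SNAI2 and OVOL2, with limma adjusted p of 0.0254 and 0.0387, 0.0146 and 0.0111, and 0.0348 and 0.00593. Over all genes, centring gave 1782 rises and 7932 falls, against 3015 and 4619 on the deposited scale. Why the scalings differ was not tested. Deviations from the group means of same-numbered arrays correlated at -0.15, -0.04 and 0.13, and 1 of the 3 numbers correlated best with itself. With 3 arrays per group these deviations depend on each other, so this check cannot settle whether the replicate numbers pair the arrays. With the replicate block, 0 of the 10 genes rose and 2 fell, and 2832 genes rose and 4333 fell. Of the 10 genes, 5 with means of 6.33 log2 intensity or lower could not be tested with the dimmest 40% left out. Signal over background limits what can be said of those 5 genes.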
